A study of Mus musculus with 44 samples.

Results

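The colony-stimulating factors and their receptors were read out as 8 genes: the ligands Csf1, Csf2 and Csf3 and the receptor genes Csf1r, Csf2ra, Csf2rb, Csf2rb2 and Csf3r. They were chosen by symbol, with earlier results of these data known, from the 24940 genes listed in each of 4 RNA-seq count tables. The 4 tables hold 44 libraries labelled as mouse bone marrow-derived macrophages (BMDMs) in 22 groups of 2 libraries. The study examined how the corepressor NCoR, the deacetylase HDAC3, the coactivator PGC-1β and the kinase TBK1 act on gene expression in resting and stimulated macrophages.

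The first table, called the NCoR table here, compared NCoR flox/flox BMDMs (WT) with NCoR flox/flox LysMCre BMDMs (NKO) under vehicle, IL4, interferon β (IFNb), the TLR3 ligand poly I:C (PolyIC), the TLR4 agonist Kdo2-lipid A (KLA, 6 h) and the osteoclast differentiation factor RANKL (12 h). All groups of that table but RANKL were at 6 h, the vehicle groups included, so no vehicle matched the 12 h of RANKL. The floxed alleles were carried by both arms, and the Cre recombinase was driven by the lysozyme M promoter, which is active in macrophages and granulocytes but not in every cell. The RGFP966 table held wild type BMDMs given vehicle (Veh), KLA, or KLA with the HDAC3 inhibitor RGFP966 (RGFP966_KLA). The Pgc1b table held Pgc1b flox/flox BMDMs without Cre (Pgc1b_flox) or with LysMCre (Pgc1b_flox_Cre), under vehicle or KLA. The TBK1i table held wild type BMDMs given DMSO (DMSO_Veh), DMSO with KLA (DMSO_KLA), or the TBK1 inhibitor with KLA (TBK1i_KLA). RGFP966 and the TBK1 inhibitor without KLA were not analysed here. The BMDMs were grown in a medium that supplied CSF1 protein, so every group, the vehicle groups included, had met that ligand before treatment. The library names give the strain C57Bl6, except those of the NKO KLA and RANKL libraries, which give none. The names of the 4 RANKL libraries also read Osteoclast where the others read BMDM, and whether these cultures started from another cell population is not given in the sources used here. The labels give no age of the mice, and nothing used here says that the 2 libraries of a group came from separate animals, so a p-value measures only the spread between these libraries.

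CSF1 (M-CSF) acts on the receptor tyrosine kinase encoded by Csf1r and sustains the survival, growth and differentiation of monocytes, macrophages and osteoclast precursors. CSF2 (GM-CSF) binds the α chain encoded by Csf2ra, which pairs with the β common chain of Csf2rb to signal through JAK2 and STAT5. Mice carry a second β chain, Csf2rb2, which serves IL-3, and CSF3 (G-CSF) acts on the homodimeric receptor of Csf3r, best known from neutrophils.

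Levels are counts-per-million values (CPM), scaled by trimmed mean of M-values (TMM) factors within each table. Depth was 8.32 to 16.8 M gene counts per library with a median of 12.2 M, so that 3 counts, taken as the floor of detection per library, corresponded to 0.179 to 0.36 CPM before that scaling. A gene was called when edgeR's quasi-likelihood test and Benjamini-Hochberg adjustment over all genes tested gave an adjusted p under 0.05 and the fold change passed 1.5. The summed level of 6 macrophage markers was 7917 to 22238 CPM in every group. Ncor1, the targeted gene, averaged 136 to 214 CPM in the WT groups and 51.0 to 62.3 CPM in the NKO groups. Ppargc1b, which encodes PGC-1β, was not lower with Cre (3.58 against 3.63 CPM under vehicle, 9.5 against 7.29 CPM under KLA), whereas Lyz2, the locus that carries the Cre, fell from 8212 to 4407 CPM under vehicle, and a count over the whole gene need not fall where part of it is deleted, so it does not check the label and the groups are called the libraries labelled Pgc1b_flox_Cre throughout. Date stamps in the library names placed the WT KLA libraries 115 days and the RANKL libraries 536 days before the vehicle libraries, and the NKO KLA libraries 1401 days before the WT KLA ones, and RGFP966_KLA replicate 2 was dated 14 days after the rest of its table. Y-linked counts were present in 10 libraries, the 8 of the Pgc1b table and the 2 of NKO KLA, and Xist in the other 34. In the NCoR table, NKO KLA and WT KLA therefore differed in genotype, date and sex, which cannot be told apart. WT KLA and WT vehicle libraries differed in ligand and date, which cannot be told apart within that table. RANKL and vehicle libraries differed in ligand, hours of treatment, date and library name, which cannot be told apart either.

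Among the ligands, Csf1 (NM_007778, mm10 chr3:107741048-107760469, minus strand) was the one detected in every library. Without treatment it was at 15.1 and 11.8 CPM in WT, 3.84 and 2.98 CPM in the RGFP966 table, 10.9 and 12.1 CPM in Pgc1b_flox and 12.4 and 12.2 CPM in the TBK1i table. In KLA libraries it reached 187 and 194 CPM in WT, 158 and 154 CPM in the RGFP966 table, 364 and 353 CPM in Pgc1b_flox and 370 and 372 CPM in DMSO_KLA. Every KLA library was above every vehicle library of its table. The log2 fold changes were 3.82 ± 0.11 (SE, n = 2 per group, adjusted p = 5.44e-23, edgeR's quasi-likelihood test and Benjamini-Hochberg adjustment), 5.5 ± 0.10 (adjusted p = 2.96e-61), 4.96 ± 0.09 (adjusted p = 5.07e-32) and 4.91 ± 0.07, in that order. The tables were processed one by one, so these responses are set side by side and were not tested against each other.

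PolyIC gave the highest Csf1 level of the NCoR table, 258 and 264 CPM in WT, a log2 fold change of 4.28 ± 0.10 over vehicle (adjusted p = 1.13e-24 by edgeR's quasi-likelihood test). IL4, the cytokine of alternative activation, gave 33.1 and 36.7 CPM in WT, which was 1.38 ± 0.13 on the log2 scale above vehicle (adjusted p = 3.87e-10, same test). IFNb (20.2 and 19.7 CPM) and RANKL (13.5 and 17 CPM) did not give a call, at 0.57 ± 0.14 and 0.18 ± 0.14. The IFNb value was called without WT vehicle replicate 1 (0.76, adjusted p = 9.44e-05, edgeR's quasi-likelihood test) and without WT IFNb replicate 2 (0.59, adjusted p = 0.0175). In the order of levels over the 12 groups of this table, WT PolyIC stood above WT KLA, NKO KLA overlapped WT KLA, NKO PolyIC stood below both, and the vehicle groups and WT RANKL overlapped at the lower end.

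Loss of NCoR was accompanied by a higher Csf1 level in one condition. Under RANKL the NKO libraries were at 28.4 and 35.4 CPM and the WT libraries at 13.5 and 17 CPM, with no overlap. The difference was 1.06 ± 0.13 (log2, adjusted p = 1.38e-07, edgeR's quasi-likelihood test) and exceeded that under vehicle by 1.12 ± 0.20 (adjusted p = 6.19e-05, interaction term of the same model). Under vehicle (11.1 and 14.4 CPM in NKO), IL4 (33.5 and 36.3 CPM) and KLA (177 and 199 CPM) the NKO values overlapped those of WT. Under IFNb NKO was at 16.4 and 19.3 CPM, below both WT libraries (20.2 and 19.7 CPM), at a log2 difference of -0.16 ± 0.13 that was not called. Under PolyIC NKO was at 175 and 176 CPM, below both WT libraries, by a log2 fold change of -0.57 ± 0.08, just short of the fold threshold. The PolyIC difference was called without WT PolyIC replicate 1 (-0.59), with DESeq2's size factors and with DESeq2 (-0.60 in both). Against the KLA libraries of Pgc1b_flox and DMSO_KLA in a joint fit, NKO KLA was lower in Csf1 by log2 values of -0.99 and -1.05. Against those of the RGFP966 table the value was -0.05 (adjusted p = 0.459, edgeR's quasi-likelihood test). The RANKL libraries also held a neutrophil and granulocyte precursor signature: 10 listed markers summed to 1317 to 1449 CPM in WT RANKL and 1797 to 1862 CPM in NKO RANKL, against 3.38 to 13.4 CPM in the other NCoR groups. Stromal markers summed to 202 to 229 CPM in WT RANKL and 246 to 348 CPM in NKO RANKL. In the other NCoR groups they summed to 12.5 to 135 CPM (92.2 to 102 CPM in WT vehicle), so this difference was far smaller than that of the granulocyte markers. The part of these cells in the RANKL values of any gene below was not tested, and in bulk samples fewer cells of a type and less RNA per cell cannot be told apart.

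With the inhibitors Csf1 moved in different directions from KLA alone. RGFP966 with KLA gave 208 and 178 CPM, above both KLA libraries, by 0.31 ± 0.07 (log2), which was not called. TBK1i_KLA gave 131 and 136 CPM against 370 and 372 CPM in DMSO_KLA, a log2 fold change of -1.47 ± 0.05 (adjusted p = 4.89e-187, edgeR's quasi-likelihood test). Csf1 with the TBK1 inhibitor still exceeded DMSO_Veh by 3.44 on the log2 scale. The libraries labelled Pgc1b_flox_Cre gave 281 and 302 CPM under KLA, below Pgc1b_flox (364 and 353 CPM) by a log2 value of -0.30 ± 0.07, not called.

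**Figure D1:**
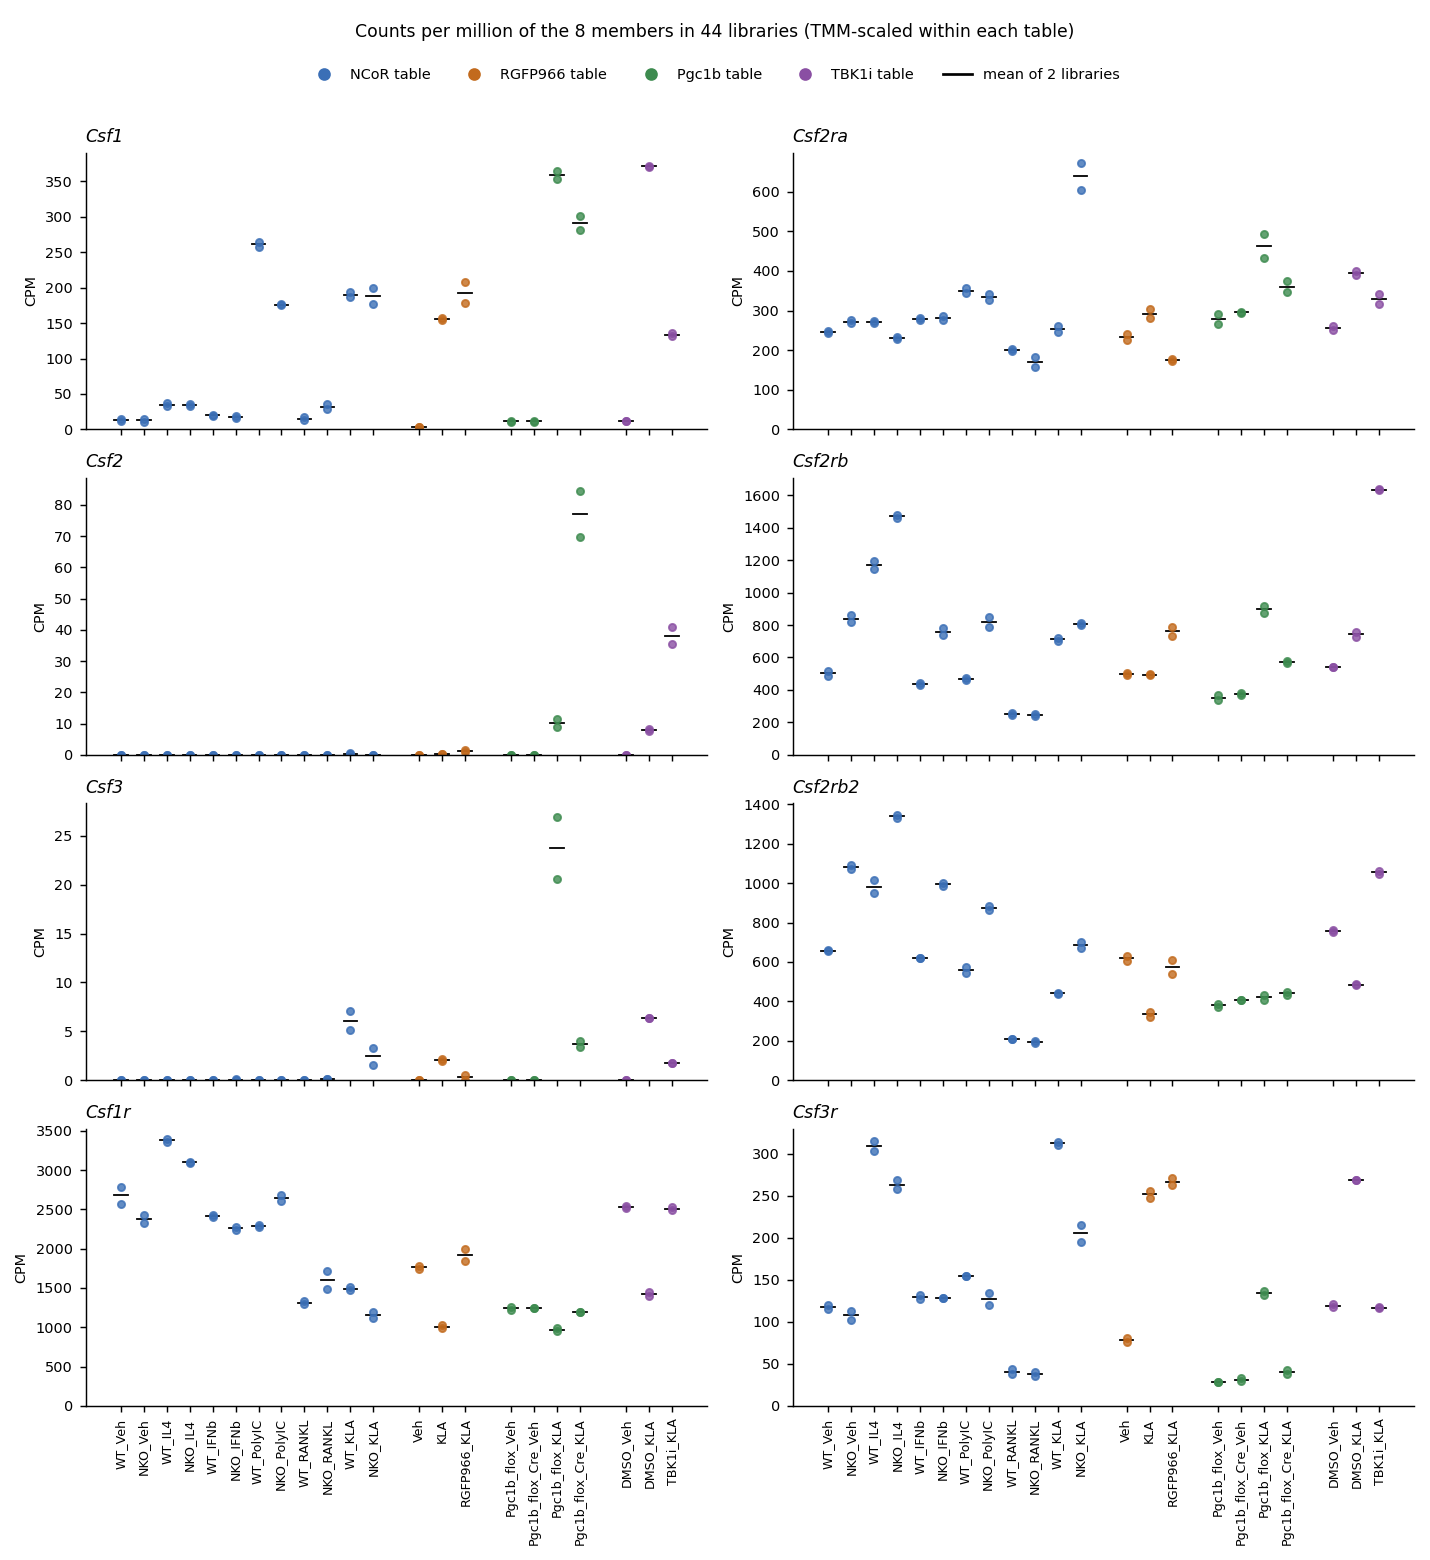
CPM (y axis, linear from 0, one scale per gene) of the 8 genes in each of 44 libraries, in 22 groups along the x axis. Points are libraries, bars are means of 2 libraries and colors mark the 4 tables. Csf1 was highest in the KLA and PolyIC groups, and Csf2 and Csf3 exceeded 3 counts in a library in KLA groups alone.

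The transcripts of the 3 ligands carry copies of ATTTA in their 3′ untranslated regions, the core of the AU-rich element that proteins such as tristetraprolin (Zfp36) bind to destabilize cytokine mRNAs. The 30-base stretches richest in this pentamer are shown because the ligands, and of the receptor genes only Csf1r, hold it. They are from GENCODE transcripts on GRCm38, 5′ to 3′ on the strand of the gene, with each ATTTA in capitals, at chr3:107741109-107741138 (minus strand) for Csf1, chr11:54247329-54247358 (minus strand) for Csf2 and chr11:98702984-98703013 (plus strand) for Csf3.
Csf1: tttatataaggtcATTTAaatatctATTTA
Csf2: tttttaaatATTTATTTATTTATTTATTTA
Csf3: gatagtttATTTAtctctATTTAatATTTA
Over the whole 3′ untranslated region, Csf1 held 4 copies in 2111 bases, Csf2 9 in 317 bases, Csf3 6 in 669 bases and Csf1r 2 in 654 bases, overlapping copies counted, on the sense strand. The other receptor genes held none. At least 1 copy was present in 61.5% of 20633 annotated 3′ untranslated regions and at least 3 in 32.1%. The longer form TTATTTATT occurred 4 times in Csf2 and in none of the other members. It occurred in 6.91% of the 3′ untranslated regions, and 3 or more times in 0.543%. A match is a description of the letters and not a test of decay.

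Csf1 was called with KLA in all 4 tables and a promoter window was at hand for it, so its 250 bases before the annotated start are given from RefSeq (GRCm38.p6, chr3:107760470-107760719, minus strand, 5′ to 3′ on the strand of the gene). Capitals mark the one match to GGNNTTTCC, the NF-kB motif searched on both strands, which starts 154 bases before the start site and reads on the opposite strand.
Csf1 promoter: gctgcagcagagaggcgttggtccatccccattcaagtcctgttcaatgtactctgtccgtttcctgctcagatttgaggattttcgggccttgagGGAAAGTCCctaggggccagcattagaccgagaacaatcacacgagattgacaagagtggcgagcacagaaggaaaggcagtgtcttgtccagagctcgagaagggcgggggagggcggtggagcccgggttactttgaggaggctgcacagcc
The motif occurred in 5.82% of 32851 promoter windows. Windows were available for 5 of the 8 genes: Csf1, Csf2, Csf2ra, Csf2rb2 and Csf3r. They run past the annotated start, so that some matches lie after it. The Csf2 window held GGNNTTTCC as well, 23 to 31 bases after the start. It also held TTGCNNAA (C/EBP, in 10.8% of windows) and GAAANNGAA (interferon response, in 8.56%), both before the start. The Csf2ra window held the cyclic AMP response element TGACGTCA (1.79% of windows) before the start. The Csf2rb2 window held GAGGAAGT (PU.1, 3.2%) 27 to 34 bases after the start, and the Csf3r window GAAANNGAA 40 to 48 bases after it.

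Csf2 (NM_009969, chr11:54247270-54249899, minus strand), the GM-CSF gene, was at 0 counts in every vehicle library and appeared with KLA. It had 3 and 5 counts (0.287 and 0.412 CPM) with KLA in the RGFP966 table, 2 and 3 counts in WT KLA, 1 count in each NKO KLA library, 109 and 72 counts (11.3 and 9.04 CPM) in Pgc1b_flox_KLA and 68 and 73 counts (7.51 and 8.44 CPM) in DMSO_KLA. No other treatment gave more than 1 count in a library. Against 3 counts per vehicle library, KLA levels were at least 45.9-fold higher in Pgc1b_flox, at least 43.3-fold higher in DMSO_KLA and at least 2.37-fold higher in the RGFP966 table. Csf2 was too low to be tested in the NCoR table, and where it was tested it passed the filter on low counts through its KLA groups.

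Csf2 after KLA was higher in the libraries labelled Pgc1b_flox_Cre and with the TBK1 inhibitor than in their KLA controls. The libraries labelled Pgc1b_flox_Cre held 905 and 696 counts (84.4 and 69.9 CPM) after KLA, all above the Pgc1b_flox libraries at 11.3 and 9.04 CPM. The difference was 7.52-fold, 2.91 ± 0.17 on the log2 scale (adjusted p = 4.04e-16, edgeR's quasi-likelihood test and Benjamini-Hochberg adjustment). TBK1i_KLA held 355 and 362 counts (35.6 and 40.8 CPM), which was 4.78-fold above DMSO_KLA, 2.26 ± 0.15 on the log2 scale (adjusted p = 1.32e-49, same test). RGFP966 with KLA held 11 and 19 counts (0.81 and 1.42 CPM) against 3 and 5 counts with KLA alone. There Csf2 passed the filter on low counts only through the RGFP966_KLA group, so these counts are given as a description without a test. Markers of T, NK and innate lymphoid cells, which can also express Csf2, summed to 197 to 208 CPM in the libraries labelled Pgc1b_flox_Cre after KLA, against 104 to 111 CPM in Pgc1b_flox_KLA, nearly all of it Il7r. Under vehicle, where Csf2 was at 0 counts, the sums were higher, at 386 to 404 CPM with Cre and 362 to 376 CPM without. In the TBK1i table they were 67.0 to 78.0 CPM in TBK1i_KLA, 61.0 to 65.9 CPM in DMSO_KLA and 439 to 442 CPM in DMSO_Veh. Cd3e, the defining T cell marker, was at most 0.0811 CPM in that table and at 0 in the RGFP966 and TBK1i tables, and Ncr1 was at 0 in the Pgc1b and TBK1i tables. Cd247, of the same list, was at 3.39 to 9.79 CPM in the Pgc1b table and 2.54 to 7.55 CPM in the TBK1i table. In the RGFP966 table Cd247 was at 1.53 to 3.98 CPM, and Klrb1c reached 1.5 CPM. The part of such cells in the Csf2 level was not tested.

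Csf3 (NM_009971, chr11:98701313-98703629, plus strand), the G-CSF gene, was also limited to KLA groups, apart from 1 or 2 counts in 3 NKO libraries under RANKL or IFNb. It had 43 and 31 counts (7.04 and 5.16 CPM) in WT KLA, 21 and 26 counts (2.01 and 2.14 CPM) with KLA in the RGFP966 table, 259 and 164 counts (26.9 and 20.6 CPM) in Pgc1b_flox_KLA and 58 and 55 counts (6.4 and 6.36 CPM) in DMSO_KLA. Every vehicle library was at 0 counts for Csf3. Against 3 counts per vehicle library the levels were at least 29.7-fold, 14.1-fold, 107-fold and 34.6-fold higher. As with Csf2, the gene was tested only because of its KLA groups.

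Csf3 after KLA was lower in the libraries labelled Pgc1b_flox_Cre and with the TBK1 inhibitor than in their KLA controls. The libraries labelled Pgc1b_flox_Cre held 43 and 34 counts (4.01 and 3.41 CPM) against 26.9 and 20.6 CPM, a log2 fold change of -2.68 ± 0.28 (adjusted p = 8.62e-10 by edgeR's quasi-likelihood test). TBK1i_KLA held 18 and 16 counts (1.8 CPM in both) against 6.4 and 6.36 CPM, a log2 fold change of -1.82 ± 0.33 (adjusted p = 1.65e-07, same test). RGFP966 with KLA held 7 and 1 counts (0.516 and 0.075 CPM) against 21 and 26 counts with KLA alone, given without a test because Csf3 passed the filter there only through the KLA group. The lowest KLA control library was above the highest perturbed library in each of the 3 tables. NKO KLA held 38 and 17 counts (3.26 and 1.62 CPM) against 7.04 and 5.16 CPM in WT KLA, a log2 fold change of -1.30 ± 0.39 (adjusted p = 0.00331, same test). That call was lost without WT KLA replicate 1 (-1.06), without NKO KLA replicate 2 (-0.90) and with DESeq2 (adjusted p = 0.0998). With other KLA controls in a joint fit, the value was -0.07 for the RGFP966 table (adjusted p = 0.863, edgeR's quasi-likelihood test). It was -3.32 with Pgc1b_flox_KLA (adjusted p = 1.79e-19) and -1.43 with DMSO_KLA (adjusted p = 9.65e-06, same test).

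**Figure D2:**
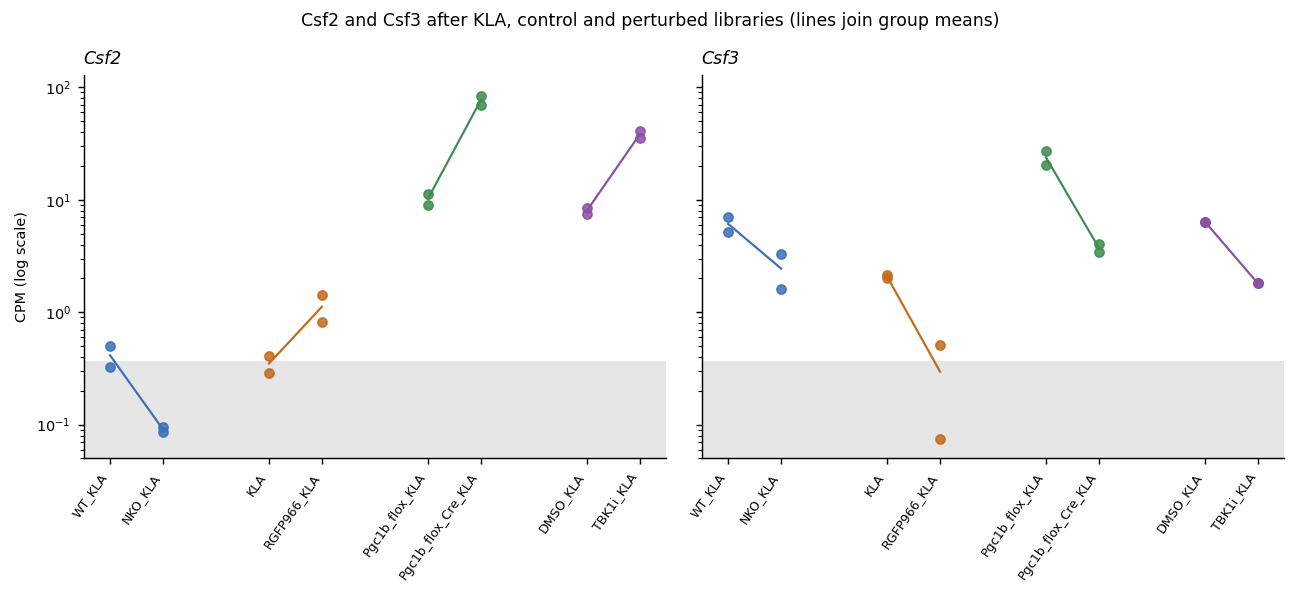
CPM on a log axis (y) of Csf2 and Csf3 in the KLA libraries of the 4 tables (x axis), with lines joining the means of 2 libraries in control and perturbed groups. The grey band reaches up to the level of 3 counts in the shallowest library. In the RGFP966, Pgc1b and TBK1i tables the perturbed libraries were above their controls for Csf2 and below them for Csf3.

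Among the receptors, Csf1r (NM_001037859, chr18:61105572-61131139, plus strand), the CSF1 receptor and a defining gene of macrophages, had the highest level per kilobase of transcript in WT vehicle. It was at 668 and 723 CPM per kb in WT vehicle, against 140 and 138 for Csf2rb2, 133 and 136 for Csf2ra, 103 and 109 for Csf2rb, 29.4 and 30.5 for Csf3r and 3.63 and 2.82 for its own ligand Csf1. Levels per kilobase take each table's listed length as the measure of the transcript.

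Csf1r was lower with KLA in 3 tables past the fold threshold, among them the NCoR table, where KLA and vehicle libraries also differed in date. WT went from 2573 and 2784 CPM to 1509 and 1470 CPM, the wild type cells of the RGFP966 table from 1785 and 1740 to 1023 and 988 CPM, and those of the TBK1i table from 2513 and 2539 to 1401 and 1453 CPM. The log2 fold changes were -0.85 ± 0.05, -0.81 ± 0.05 and -0.82 ± 0.03 (adjusted p = 2.68e-22, 7.45e-24 and 3.22e-130, edgeR's quasi-likelihood test). Pgc1b_flox, where vehicle libraries were lower at 1214 and 1263 CPM, gave 988 and 953 CPM and a log2 fold change of -0.35 ± 0.06, not called. In all 4 tables the KLA libraries lay below the vehicle libraries without overlap.

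With an inhibitor present, Csf1r after KLA was close to its vehicle level. RGFP966_KLA gave 1991 and 1841 CPM, 0.93 ± 0.05 (log2) above KLA alone (adjusted p = 3.70e-26, edgeR's quasi-likelihood test) and 0.12 above vehicle. TBK1i_KLA gave 2524 and 2494 CPM, 0.81 ± 0.03 above DMSO_KLA, and overlapped DMSO_Veh at a log2 difference of -0.01 (adjusted p = 0.801, same test). Csf1r was also lower in the RANKL libraries than in vehicle, at 1330 and 1293 CPM in WT, by -1.03 ± 0.05 on the log2 scale (adjusted p = 5.25e-26, same test). IL4 gave 3360 and 3401 CPM, a log2 fold change of 0.34 that was not called. NKO against WT differences of Csf1r lay between -0.37 (KLA) and 0.29 (RANKL) on the log2 scale, and none was called.

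**Figure D3:**
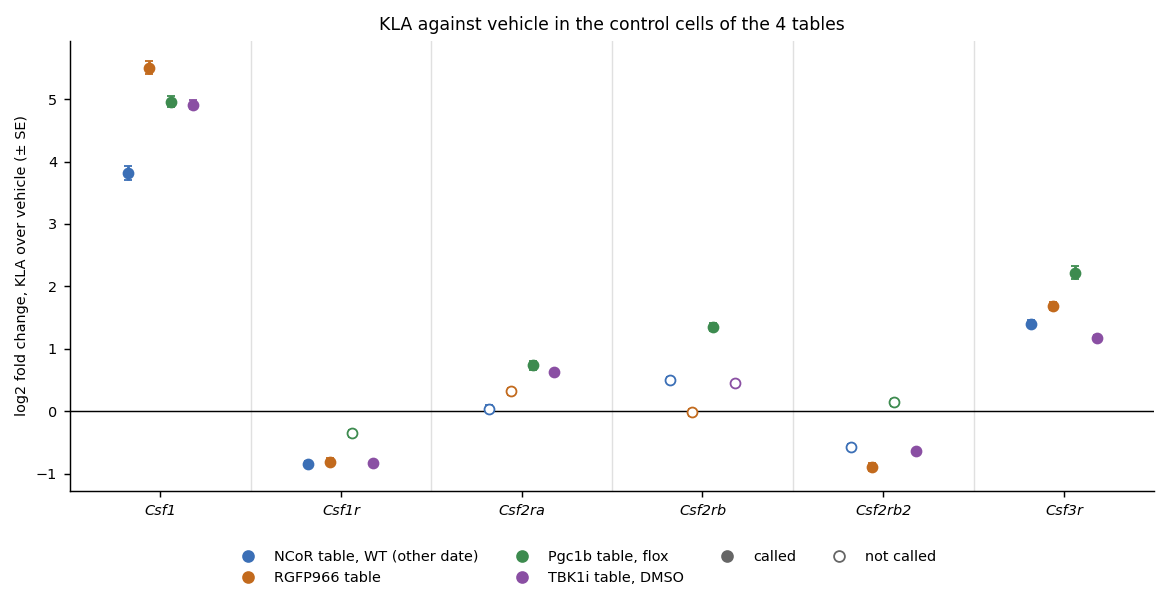
Log2 fold change (y axis, ± SE) of KLA against vehicle for the 6 members with a level above the floor in every group, in the control cells of the 4 tables, from edgeR fits with 2 libraries per group. Filled points were called. Csf1 and Csf3r were higher with KLA in all 4 tables, and Csf1r was lower, past the fold threshold in 3.

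Csf2ra (NM_009970, chr19:61224402-61228418, minus strand), the ligand-binding chain of the GM-CSF receptor, ranged from 159 to 673 CPM over the separately scaled tables. WT was at 243 and 249 CPM under vehicle and 245 and 262 CPM under KLA, a log2 difference of 0.04 ± 0.06 (adjusted p = 0.542, edgeR's quasi-likelihood test). KLA raised it in Pgc1b_flox from 266 and 290 to 492 and 433 CPM (log2 0.73 ± 0.07, adjusted p = 9.16e-12, same test) and in the TBK1i table from 261 and 250 to 399 and 390 CPM (0.63 ± 0.04, adjusted p = 2.93e-49), but by only 0.32 in the RGFP966 table, from 241 and 226 to 304 and 281 CPM. The TBK1i table call was lost with a filter at a mean of 5 CPM (0.58) and with only the compared groups in the fit (0.56), both just under the fold threshold. RGFP966 with KLA gave 178 and 172 CPM, below both KLA libraries by -0.74 ± 0.06 on the log2 scale (adjusted p = 1.61e-18, same test).

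The highest Csf2ra levels of the NCoR table were in NKO KLA, at 673 and 604 CPM against 245 and 262 CPM in WT KLA. The log2 difference was 1.33 ± 0.06 (adjusted p = 1.04e-28, edgeR's quasi-likelihood test) and exceeded that under vehicle by 1.19 ± 0.08 (adjusted p = 1.73e-19, interaction term). These 2 groups are also the ones that differ in date and sex. Set against KLA libraries of the other tables in a joint fit, NKO KLA was higher by 0.81 (RGFP966 table), 0.62 (TBK1i table) and 0.41 (Pgc1b table, not called). The 5 dendritic cell markers summed to 31.2 to 35.4 CPM in NKO KLA and 4.26 to 4.66 CPM in WT KLA, led by Clec9a (up to 22.2 CPM) and Xcr1 (up to 12.4 CPM), while Flt3, Zbtb46 and Cd209a stayed under 3 CPM in the table. Their part in the Csf2ra level was not tested.

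The β chains Csf2rb (NM_007780, chr15:78325990-78351001, plus strand) and Csf2rb2 (NM_007781, chr15:78282508-78305721, minus strand) lie next to each other and are near-identical in coding sequence: of 2631 aligned coding bases 2505, or 95.2%, were the same, and the longest run without a difference was 242 bases. A 60-base window of each is shown because the reads that tell the genes apart must cross such differences. It was picked as the window with the most differences, without a gap and inside an exon of each gene, so it is not typical of the coding sequence. The windows are coding bases 304 to 363 of Csf2rb (GENCODE, GRCm38, chr15:78338893-78338952, plus strand) and 307 to 366 of Csf2rb2 (chr15:78294379-78294438, minus strand), 5′ to 3′ on the strand of each gene, with the 13 differing bases in capitals.
Csf2rb: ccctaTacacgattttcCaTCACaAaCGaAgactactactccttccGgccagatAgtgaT
Csf2rb2: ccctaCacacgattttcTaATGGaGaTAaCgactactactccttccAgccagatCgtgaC
Of all stretches of 50 bases in their transcripts, 18.9% of those of Csf2rb and 19% of those of Csf2rb2 occurred in the other gene. How the authors' counting treated reads that fit both is not given in the sources used here, so a small difference between the 2 genes is uncertain.

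Both β chains were higher in resting NKO cells than in resting WT cells. Under vehicle NKO was at 817 and 864 CPM for Csf2rb against 487 and 520 CPM in WT, and at 1074 and 1091 CPM for Csf2rb2 against 661 and 654 CPM. The log2 differences were 0.74 ± 0.05 (adjusted p = 4.44e-18) and 0.72 ± 0.05 (adjusted p = 1.69e-18, edgeR's quasi-likelihood test for both). The NKO libraries lay above the WT ones without overlap for both genes.

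Both genes stayed higher in NKO under IFNb (Csf2rb 740 and 779 against 441 and 430 CPM; Csf2rb2 987 and 1000 against 618 and 620 CPM) and PolyIC (Csf2rb 789 and 852 against 473 and 463 CPM; Csf2rb2 864 and 885 against 546 and 574 CPM), with log2 differences of 0.80, 0.68, 0.81 and 0.64 that were all called. IL4 alone raised WT Csf2rb to 1147 and 1194 CPM (1.22 ± 0.05 on the log2 scale, adjusted p = 5.81e-29, edgeR's quasi-likelihood test) and Csf2rb2 to 950 and 1013 CPM (0.58 ± 0.05, just under the fold threshold). The Csf2rb2 value with IL4 was called with DESeq2's size factors, with DESeq2, with only the compared groups and without WT vehicle replicate 1 (0.59 in each) and without WT IL4 replicate 1 (0.62). On top of IL4 the NKO libraries were higher again, at 1461 and 1480 CPM for Csf2rb and 1346 and 1330 CPM for Csf2rb2, by 0.33 ± 0.05 and 0.45 ± 0.05, neither of them past the fold threshold.

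Under RANKL the genotypes did not differ by a called amount. Csf2rb was at 244 and 258 CPM in WT and 242 and 252 CPM in NKO, and Csf2rb2 at 208 and 212 CPM in WT and 190 and 197 CPM in NKO. The NKO against WT difference under RANKL was below that under vehicle by a log2 value of -0.76 ± 0.07 for Csf2rb (adjusted p = 2.04e-12) and -0.84 ± 0.07 for Csf2rb2 (adjusted p = 1.98e-14, interaction terms of edgeR's quasi-likelihood test). In WT, both genes were lower in the RANKL libraries than in vehicle, by -1.0 ± 0.05 and -1.65 ± 0.05 on the log2 scale (adjusted p = 4.66e-25 and 3.65e-36, same test). The granulocyte precursor and stromal marker sums of the RANKL libraries given above apply here as well. Under KLA, Csf2rb was at 801 and 814 CPM in NKO and 719 and 703 CPM in WT (0.18, not called), and Csf2rb2 at 671 and 704 CPM in NKO and 444 and 440 CPM in WT (0.64 ± 0.05, called). In the joint fit the Csf2rb2 value was 0.58 with WT KLA and 0.43 with DMSO_KLA as control, neither called. It was 0.72 with the KLA libraries of the RGFP966 table and 0.66 with Pgc1b_flox_KLA, both called.

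**Figure D4:**
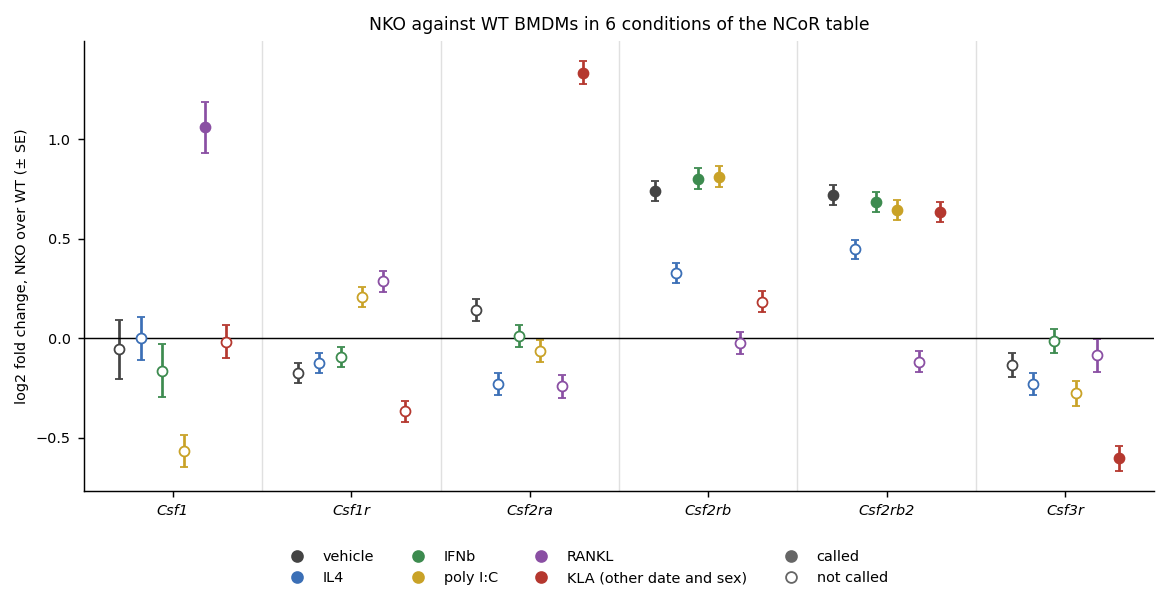
Log2 fold change (y axis, ± SE) of NKO against WT for the 6 members with a level above the floor in every group, in each of 6 conditions, from edgeR fits with 2 libraries per group. Filled points were called. Csf2rb and Csf2rb2 were higher in NKO under vehicle, IFNb and PolyIC, and Csf2ra under KLA, where the groups also differ in date and sex.

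The β chains differed in their change with KLA, where the WT libraries also differed in date. Csf2rb2 fell with KLA in the RGFP966 table from 633 and 607 to 345 and 323 CPM (log2 -0.89 ± 0.06, adjusted p = 1.64e-24, edgeR's quasi-likelihood test) and in the TBK1i table from 760 and 753 to 483 and 489 CPM (-0.64 ± 0.04, adjusted p = 7.57e-63, same test). Its log2 value was 0.14 in Pgc1b_flox and -0.57 ± 0.05 in WT, neither called, the WT value just short of the fold threshold. The WT value was called with no filter on low counts and with a filter at a mean of 5 CPM (-0.59 in both). Csf2rb had log2 values of 0.50 in WT, -0.02 in the RGFP966 table and 0.45 in the TBK1i table, none called. It was called in Pgc1b_flox, from 336 and 367 to 875 and 920 CPM (1.35 ± 0.06, adjusted p = 2.04e-20, same test). The ratio of Csf2rb to Csf2rb2, in CPM per kb, averaged 0.761 in WT vehicle, 0.80 in the RGFP966 table, 0.917 in Pgc1b_flox and 0.714 in DMSO_Veh. After KLA it averaged 1.60, 1.47, 2.12 and 1.52 in the same order, and no KLA library overlapped a vehicle library of its table. IL4 (1.19) and RANKL (1.19) also gave higher ratios than vehicle in WT, while IFNb (0.70) and PolyIC (0.831) gave ratios nearer to it.

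**Figure D5:**
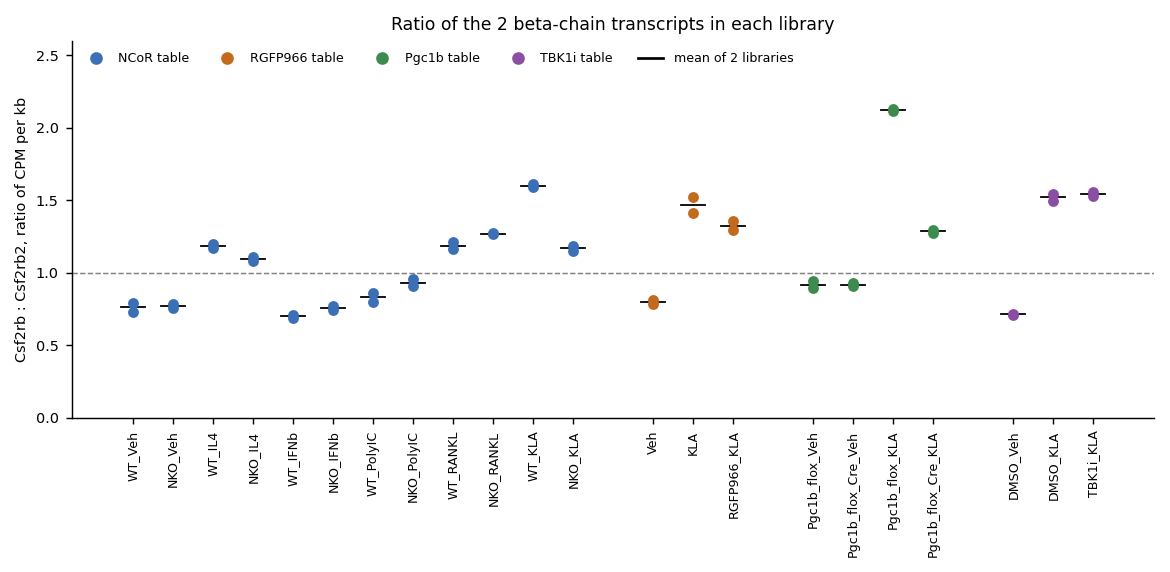
Ratio of Csf2rb to Csf2rb2 in CPM per kb (y axis, linear from 0) in each library of the 22 groups (x axis), with bars for means of 2 libraries. The vehicle groups averaged 0.714 to 0.918 and the KLA groups 1.17 to 2.12.

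The inhibitors gave higher levels of both β chains after KLA. TBK1i_KLA was at 1632 and 1636 CPM for Csf2rb, against 727 and 758 CPM in DMSO_KLA, and at 1062 and 1046 CPM for Csf2rb2 against 483 and 489 CPM. The log2 differences were 1.14 ± 0.04 and 1.12 ± 0.04 (adjusted p = 1.92e-208 and 5.12e-184, edgeR's quasi-likelihood test). RGFP966_KLA was at 790 and 731 CPM for Csf2rb against 490 and 496 CPM with KLA, and at 608 and 537 CPM for Csf2rb2 against 345 and 323 CPM, by 0.63 ± 0.06 and 0.78 ± 0.06 (adjusted p = 1.16e-16 and 3.71e-20, same test). The Csf2rb call was lost without RGFP966_KLA replicate 1 (0.57), with DESeq2's size factors (0.56) and with DESeq2 (0.56), just under the fold threshold. In the libraries labelled Pgc1b_flox_Cre, Csf2rb was lower after KLA, at 568 and 577 CPM against 875 and 920 CPM (-0.65 ± 0.06, adjusted p = 3.05e-11, same test), and this difference was below that under vehicle by a log2 value of -0.74 ± 0.09 (adjusted p = 8.96e-09, interaction term). Without Pgc1b_flox_KLA replicate 2 the value under KLA was -0.58 and not called. Csf2rb2 was at 435 and 449 CPM there and at 408 and 432 CPM in Pgc1b_flox_KLA (0.07, adjusted p = 0.356, same test).

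Csf3r (chr4:126024659-126044975, plus strand), the G-CSF receptor gene, is listed as NR_045561 in the NCoR and TBK1i tables and as NM_007782 in the other tables. It shared 11.5% of its stretches of 50 bases with other genes. Csf3r was higher with KLA than with vehicle in all 4 tables. It went from 116 and 120 to 314 and 310 CPM in WT, where date differed as well. In the RGFP966 table it went from 80.3 and 75.8 to 256 and 247 CPM. In Pgc1b_flox it went from 28.8 and 28.6 to 131 and 136 CPM, and in the TBK1i table from 121 and 117 to 269 and 268 CPM. The lowest KLA library was more than the highest vehicle library in each table. The fold changes were 2.65, 3.22, 4.66 and 2.25 (adjusted p = 2.20e-29, 1.33e-40, 1.77e-20 and 6.70e-126, edgeR's quasi-likelihood test). IL4 gave 303 and 315 CPM in WT, a log2 fold change of 1.39 ± 0.06 (adjusted p = 7.10e-29, same test). RANKL gave 37.7 and 43.4 CPM, a log2 fold change of -1.54 ± 0.07 (adjusted p = 1.88e-28, same test), in the libraries with the granulocyte precursor markers described above.

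After KLA, Csf3r was lower with the TBK1 inhibitor and in the libraries labelled Pgc1b_flox_Cre. TBK1i_KLA was at 118 and 116 CPM, less than both DMSO_KLA libraries by a log2 value of -1.20 ± 0.05 (adjusted p = 4.01e-115, edgeR's quasi-likelihood test) and -0.03 from DMSO_Veh (adjusted p = 0.644, same test). The libraries labelled Pgc1b_flox_Cre were at 42.9 and 37.8 CPM after KLA against 131 and 136 CPM, a log2 fold change of -1.73 ± 0.10 (adjusted p = 8.48e-17, same test), and the Cre difference under KLA was below that under vehicle by a log2 value of -1.85 ± 0.14 (adjusted p = 9.82e-13, interaction term). RGFP966 with KLA was at 262 and 271 CPM, 0.08 ± 0.06 from KLA alone (adjusted p = 0.235, same test). NKO KLA was at 195 and 215 CPM against 314 and 310 CPM in WT KLA (-0.61 ± 0.06, adjusted p = 2.51e-13, same test). That last value is just past the fold threshold, was -0.53 and not called without NKO KLA replicate 1, was -0.46 and not called with DMSO_KLA as control, and turned to 0.57 (not called) against the KLA libraries of Pgc1b_flox in a joint fit by symbol.

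The number of members called was read against the share of all genes called in the same comparison. Of the 7 members tested in the NCoR table, IL4 against vehicle in WT called 3, all higher, where 13.1% of all genes were called; IFNb called 0, where 6.47% were called, with 4 members under an adjusted p of 0.05 without the fold threshold. Csf1, at 0.57, was the largest of these. PolyIC called 1 (Csf1), where 47.2% of genes were called, RANKL 4, all lower, where 43.8% were called, and KLA 3 higher and 1 lower, where 57.8% were called. The 3 higher include Csf3, which was at 0 counts in vehicle and was tested only because of its KLA groups. NKO against WT called 2 members under vehicle (6.21% of genes), 0 under IL4 (4.24%), 2 under IFNb (3.80%), 2 under PolyIC (5.93%), 1 under RANKL (13.2%) and 4 under KLA (40.0%). All of the 2 under vehicle, IFNb and PolyIC were Csf2rb and Csf2rb2. The change of the NKO difference from vehicle was called for 0 members under IL4 (0.604% of genes), 0 under IFNb (0.604%), 0 under PolyIC (3.24%), 3 under RANKL (14.2%) and 1 under KLA (36.9%). Without WT vehicle replicate 1 or NKO vehicle replicate 1, Csf1 under PolyIC was called as well (-0.70 and -0.67), and without WT vehicle replicate 2 or NKO vehicle replicate 1 so was Csf2rb under KLA (-0.60 and -0.59).

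In the other tables all 8 members were tested, Csf2 and Csf3 only because of their KLA groups. Both were at 0 counts in every vehicle library and are among the called members in every count of a KLA group against vehicle below. Those counts are therefore not a test against the shares. In the count of RGFP966 with KLA against KLA both are included, but neither is read as tested. KLA called 6 of 8 in the RGFP966 table (60.0% of genes), 6 in Pgc1b_flox (48.5%) and 7 in the TBK1i table (58.9%). RGFP966 with KLA differed from KLA in 6 members (25.4% of genes), Csf2 and Csf3 included, which passed the filter only through the group where each was high, and from vehicle in 5 (54.3%), of which 3 were left without RGFP966_KLA replicate 1. The libraries labelled Pgc1b_flox_Cre differed from Pgc1b_flox in 0 members under vehicle (0.303% of genes), with adjusted p of at least 0.655 in edgeR's quasi-likelihood test, and in 4 under KLA (26.1%), and the interaction was called for 2 (22.8%). TBK1i_KLA differed from DMSO_KLA in 7 members (33.3% of genes) and from DMSO_Veh in 4 (57.3%). After RGFP966 or the TBK1 inhibitor, Csf1r, Csf2rb and Csf2rb2 were higher than with KLA alone in both tables, while Csf1 and Csf3r were called lower with the TBK1 inhibitor and not with RGFP966, and Csf2ra the other way round. The inhibitors were given in different tables, so they were not tested against each other.

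Genes of the receptors' signalling path were read from a fixed list of 18, all tested. With KLA 12 were higher and 0 lower in WT (57.8% of all genes called), 13 and 0 in the RGFP966 table (60.0%), 13 and 0 in Pgc1b_flox (48.5%) and 12 and 0 in the TBK1i table (58.9%). Jak2, the kinase bound to the β chains, rose by 4.76 ± 0.07, 4.78 ± 0.07, 4.38 ± 0.08 and 4.56 ± 0.05 on the log2 scale. The list's median in WT was 1.50 against -0.14 over all genes tested. PolyIC raised 11 and lowered 0, with Jak2 at 3.76 ± 0.07, where 47.2% of all genes were called. In the RANKL libraries 0 were higher and 7 lower than in vehicle, with the adaptor Gab2 at -1.59 ± 0.06, where 43.8% were called. After KLA the TBK1 inhibitor raised 1 and lowered 5 (Stat5a 1.25 ± 0.04, Pik3cd -2.26 ± 0.05), a share equal to the 33.3% of all genes called. After KLA 2 were higher and 5 lower in the libraries labelled Pgc1b_flox_Cre (Pik3cd -1.94 ± 0.07, Stat3 -1.55 ± 0.07), where 26.1% of all genes were called.

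Negative regulators of cytokine receptors, 12 genes, responded to IL4 with 6 higher and 2 lower, at a median log2 fold change of 0.60 against -0.01 over all genes, of which 13.1% were called. Cish and Socs1, inhibitors of JAK and STAT signalling, rose by 7.21 ± 0.30 and 6.11 ± 0.13 on the log2 scale. With KLA 5 to 6 were higher and 1 to 3 lower in the 4 tables, where 48.5 to 60.0% of all genes were called, and Socs3, which binds the G-CSF receptor, rose by 8.93 ± 0.22 in WT, 10.42 ± 0.10 in the RGFP966 table, 9.70 ± 0.15 in Pgc1b_flox and 9.48 ± 0.07 in the TBK1i table. RGFP966 with KLA lowered 4 and raised 0 (25.4% of all genes called), with Socs1 at -2.42 ± 0.08. The libraries labelled Pgc1b_flox_Cre had 1 higher after KLA, Cish at 2.41 ± 0.09, and 6 lower, among them the phosphatase Ptpn6 at -1.18 ± 0.06 (26.1% of all genes called). The TBK1 inhibitor raised 1 and lowered 4, with the ubiquitin ligase Cblb at -1.61 ± 0.07, where 33.3% were called.

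Myeloid transcription factors were 13 genes in the NCoR table and 12 tested elsewhere. Cebpa, a regulator of granulocyte and monocyte genes, fell with KLA (list median in WT 0.02 against -0.14 over all genes), at log2 values of -5.35 ± 0.11 in WT, -4.66 ± 0.09 in the RGFP966 table, -3.35 ± 0.11 in Pgc1b_flox and -4.05 ± 0.07 in the TBK1i table, and was higher by 2.25 ± 0.11 with RGFP966 and 2.21 ± 0.09 with the TBK1 inhibitor than with KLA alone. Irf8, a factor of monocytes and dendritic cells, was 2.14 ± 0.06 higher in NKO KLA than in WT KLA and had a log2 value of -3.06 ± 0.06 with the TBK1 inhibitor. NKO against WT under vehicle called 2 of the 13, Egr2 at 1.36 ± 0.11 and Klf4 at 0.84 ± 0.12, where 6.21% of all genes were called. With IL4 4 rose and 1 fell (13.1% of all genes called), led by the same genes, Egr2 at 2.6 ± 0.11 and Klf4 at 2.36 ± 0.10.

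Of 9 mRNA decay and stability factors, KLA called 6 higher and 2 lower in WT and 4 higher and 2 lower in each other table, with a list median of 0.93 in WT against -0.14 over all genes, of which 48.5 to 60.0% were called in the 4 tables. Zfp36l1, an AU-rich element binding protein, fell, at log2 values of -4.12 ± 0.14 in WT, -4.34 ± 0.09 in the RGFP966 table and -3.74 ± 0.07 in the TBK1i table, while Zfp36 rose by 3.92 ± 0.08 in Pgc1b_flox. Zfp36 was lower after KLA with the TBK1 inhibitor (-1.88 ± 0.04) and in the libraries labelled Pgc1b_flox_Cre (-1.11 ± 0.07). RGFP966 called 1 of the 9, Zfp36l2 at 0.71 ± 0.07, where 25.4% of all genes were called. Of 8 related cytokines 2 were tested, and Kitl, the ligand of the Kit receptor, was lower with RGFP966 (-1.38 ± 0.10) and with the TBK1 inhibitor (-1.90 ± 0.14) than with KLA alone. Of the related receptors, Sdc1 was higher in NKO under vehicle (1.08 ± 0.06), IL4 (0.74 ± 0.06), IFNb (1.19 ± 0.06) and PolyIC (1.44 ± 0.07), and had log2 values of -0.94 ± 0.06 under RANKL and -1.41 ± 0.07 under KLA.

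The genes most like each member over the 12 groups of the NCoR table were named by Pearson r of log2(CPM + 1) group means, among 11010 genes, with r over the 10 groups of the other tables beside it. For Csf1 these were Fndc3a (0.98 and 0.89), Fam20b (0.98 and 0.86) and Scimp (0.98 and 0.90). For Csf2ra they were Brms1 (0.99 and 0.86), Mpc1 (0.97 and 0.64) and Vps51 (0.97 and 0.85), and for Csf3r Tbc1d9b (0.97 and 0.85), Prdm2 (0.96 and 0.57) and Laptm4a (0.95 and 0.71). For Csf2rb they were Plcd1 (0.94 and 0.82), Dvl3 (0.93 and 0.55) and Itgax (0.92 and -0.30).

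Among the other members, the closest genes to Csf1r were Rilp (0.97 and 0.20), Prcp (0.97 and -0.09) and Zfp14 (0.95 and 0.44), and for Csf2rb2 Abcg1 (0.96 and -0.03), Arhgef11 (0.96 and 0.29) and Man2b1 (0.95 and 0.22). For Csf3, which had counts in few groups, they were Zfp811 (0.99 and 0.63), Gm14023 (0.99 and 0.78) and Shisa3 (0.98 and 0.77). The points within a table share their libraries and their scaling, and the NCoR groups share vehicle, date and genotype arms, so these values are descriptions.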

How the data were processed

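RNA from 44 libraries labelled as BMDMs, of which the names of the 4 RANKL libraries read Osteoclast, was poly(A) enriched and sequenced by the authors. The deposited values are raw read counts per gene in 4 tables, made by the authors and, per the submitters' processing notes, with STAR, HOMER, DESeq2 and the mm10 build. Per the study's methods, HOMER counted exonic reads on the strand of the gene, with the most abundant transcript kept. How reads that fit both β chains were treated is not given in the sources used here. No column was left unmatched to a sample (0 columns), no row lacked a symbol (0), and 1346 genes are under 250 bases.

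Groups were taken from the labels. Counts were tested per table with edgeR 4.0.16 (limma 3.58.1, R 4.3.3): TMM scaling, filterByExpr, and a quasi-likelihood F-test on all groups of the table, two-sided, with Benjamini-Hochberg adjustment. This left 13407 (NCoR), 12196 (RGFP966), 12205 (Pgc1b) and 12332 (TBK1i) genes. A call needed an adjusted p under 0.05 and a fold above 1.5. Folds against groups at 0 are bounds against 3 counts per library, and the bounds cover counting error only. The 2 libraries of every group differed beyond sampling noise (chi-square per degree of freedom 1.54 to 5.87), and all were kept. The step was tested on simulated data first. DESeq2 1.42.0, other filters, size factors, fold thresholds, a replicate block, compared groups alone, each library left out and other KLA controls were the alternatives. The joint fit that gives other KLA controls was matched by transcript, which leaves Csf3r without a value, and a match by symbol was added after seeing the data.

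The named genes were the 8 members, the label checks, at most the 2 called genes with the largest change and at least 5 CPM per list and comparison, and the 3 genes most like each member in the NCoR table (log2(CPM + 1), at least 5 CPM in some group). The members and lists were chosen with earlier results of these data known. Sequences came from GENCODE on GRCm38 and RefSeq promoters on GRCm38.p6, read with Python 3.11.15 and Biopython 1.88. Promoter windows of Csf3, Csf1r and Csf2rb were not analysed here.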

Additional observations from a re-analysis of the deposited data

Results flagged for a closer look

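In 6 cases a member's response differed between 2 arms of the same contrast by the interaction term of edgeR's quasi-likelihood test and Benjamini-Hochberg adjustment. The NKO against WT difference under RANKL departed from that under vehicle by 1.12 ± 0.20 on the log2 scale for Csf1 (adjusted p = 6.19e-05), by -0.76 ± 0.07 for Csf2rb (adjusted p = 2.04e-12) and by -0.84 ± 0.07 for Csf2rb2 (adjusted p = 1.98e-14). The RANKL libraries were dated 536 days before the vehicle libraries and held granulocyte precursor markers at 1317 to 1862 CPM in sum, whose part in these values was not tested.

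The NKO against WT difference under KLA departed from that under vehicle by 1.19 ± 0.08 for Csf2ra (adjusted p = 1.73e-19, same test). Genotype, date and sex cannot be told apart there. The Cre difference under KLA in the Pgc1b table departed from that under vehicle by -0.74 ± 0.09 for Csf2rb (adjusted p = 8.96e-09) and by -1.85 ± 0.14 for Csf3r (adjusted p = 9.82e-13, same test), in libraries whose Ppargc1b count was not lower with Cre, although a count over the whole gene need not fall where part of it is deleted.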

How the results depend on the processing

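Of 74 called member results, each recomputed under the alternatives, 809 values kept their direction and their side of the threshold, 28 lost the call and 1 changed sign. The 809 include 74 values from the setting with no fold threshold, where a called result stays called by definition. The 74 results include Csf2 and Csf3 for RGFP966 with KLA against KLA, given above without a test. The sign change was Csf3r in NKO KLA against the KLA libraries of Pgc1b_flox, at 0.57, in the joint fit by symbol chosen after seeing the data. With no fold threshold the members called rose to 6 (IL4), 4 (IFNb) and 5 (PolyIC) in WT, to 4 (IL4), 5 (PolyIC) and 3 (RANKL) for NKO against WT, to 3 (IL4), 2 (PolyIC), 5 (RANKL) and 4 (KLA) for the change of that difference from vehicle, and to 7 for Pgc1b_flox_Cre under KLA and 4 for its interaction. The NKO KLA count of 4 became 2 with the KLA libraries of the RGFP966 table as control, where Csf3r has no value. The KLA interaction count of 1 became 2 with DESeq2's size factors and 2 with DESeq2, by Csf2rb. RGFP966_KLA against vehicle, 5 members, became 2 with a filter at a mean of 5 CPM, which leaves out Csf2 and Csf3, and 3 with only the compared groups. Leaving out each library gave 0 to 1 members for IFNb in WT, 0 to 1 for the PolyIC interaction, 1 to 2 for the KLA interaction and 3 to 5 for RGFP966_KLA against vehicle. The replicate block changed none of the 74 calls and no count. Deviations of same-numbered libraries correlated at -0.06 to 0.06 and gave no sign of pairing, which does not show that the samples were unpaired. DESeq2's size factors moved the median of all genes by less than 0.1 in every comparison. Csf2 and Csf3 at a few counts per library are where depth sets the limit.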
